A study of Mus musculus with 12 samples.

Results

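MHC class II presentation genes were measured in mouse spleen with 17 probe sets, the probe groups of a 3' expression array that each report 1 transcript or set of transcripts. The 9 genes are H2-Aa, H2-Ab1, H2-Eb1, H2-DMa, H2-Oa, H2-Ob, Cd74, Ciita and Ctss. Every probe set whose only gene symbol in the array annotation is 1 of these 9 was taken, which gave 9 of 18193 genes and 17 of the 45037 non-control probe sets. H2-Aa had 4 of them, H2-Ab1 and Ciita 3 each, H2-DMa 2, and the other 5 genes 1 each. All 17 were bright enough to be tested, which took a scaled signal of 100 or more on 3 or more of the 12 arrays.

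The spleens came from 12 BALB/c mice, 1 mouse per array, in 4 groups of 3. Wild-type mice at 1 month and at 4 months of age are called wt, and Il1rn-deficient mice at the same 2 ages are called ko. Il1rn encodes the IL-1 receptor antagonist, and BALB/c mice without it develop arthritis spontaneously. The series title asks which genes of the disease belong to which phase. The labels state neither the deleted part of the gene nor the sex, housing or joint score of any mouse, and whole spleen was used with no cell sorting. Since whole tissue was measured, fewer cells of a type and less RNA per cell cannot be told apart in any value below.

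Class II molecules are pairs of an alpha and a beta chain that show peptides from swallowed material to CD4 T cells. In the spleen they are carried mainly by B cells, dendritic cells and macrophages. The chains are assembled on the invariant chain encoded by Cd74, which plugs the groove and steers the complex to endosomes. There the protease cathepsin S, encoded by Ctss, trims the invariant chain, the H2-DM dimer exchanges its last fragment for a peptide, and the H2-O dimer holds H2-DM back. Ciita encodes the transactivator that switches class II genes on. It binds no DNA itself and is held at their promoters by factors on the X box (RFX and CREB proteins) and the Y box (NF-Y).

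RefSeq promoter windows on the mouse assembly GRCm38.p6, from 250 bases before to 50 bases after an annotated start, were found for 6 of the 9 genes. H2-Ab1, Cd74 and Ciita had none in the table. The letters searched were CNNGCAAC for the X box and TGATTGG for the Y box, on both strands, and they were chosen after these windows had been read. Alone, each is common: 11.2% of 32851 windows of this length hold the first and 7.82% the second. The X letters followed by the Y letters on 1 strand with 5 to 40 bases between them stood in 36 windows, or 0.11%. H2-Aa, H2-Eb1, H2-Oa and H2-Ob were among them, as was H2-Eb2 of the same region. The 2 windows of H2-DMa and the window of Ctss were not, nor were those of H2-DMb1 and H2-DMb2 of the region. The H2-DMb1 and H2-DMb2 windows held the Y letters without the X letters. Only exact matches were counted, so a window left out may still hold a box that departs from these letters. The 4 member windows are printed 5′ to 3′ on the strand of the gene, with the X and Y letters in capitals, because they are the element that the 4 genes share. They come from the RefSeq mouse sequence. The BALB/c sequence, which may differ from it at these loci, was not compared.
H2-Aa, chr17:34287774-34288073, minus strand: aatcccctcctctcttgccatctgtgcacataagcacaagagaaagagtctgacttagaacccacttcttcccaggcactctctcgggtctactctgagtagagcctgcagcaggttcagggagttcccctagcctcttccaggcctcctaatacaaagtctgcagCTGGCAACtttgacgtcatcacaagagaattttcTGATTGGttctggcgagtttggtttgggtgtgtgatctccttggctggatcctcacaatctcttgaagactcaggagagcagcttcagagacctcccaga
H2-Eb1, chr17:34305617-34305916, plus strand: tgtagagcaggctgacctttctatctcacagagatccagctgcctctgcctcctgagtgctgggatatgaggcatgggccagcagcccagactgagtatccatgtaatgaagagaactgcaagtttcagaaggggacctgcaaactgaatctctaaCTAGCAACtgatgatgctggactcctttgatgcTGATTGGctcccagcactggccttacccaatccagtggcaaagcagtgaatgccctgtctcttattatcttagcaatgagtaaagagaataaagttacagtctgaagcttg
H2-Oa, chr17:34092129-34092428, plus strand: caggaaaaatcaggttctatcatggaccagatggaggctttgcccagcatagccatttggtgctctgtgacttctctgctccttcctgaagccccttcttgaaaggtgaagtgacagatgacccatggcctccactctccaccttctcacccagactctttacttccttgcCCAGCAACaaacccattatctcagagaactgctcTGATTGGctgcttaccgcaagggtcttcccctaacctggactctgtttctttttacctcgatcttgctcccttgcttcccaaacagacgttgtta
H2-Ob, chr17:34238655-34238954, plus strand: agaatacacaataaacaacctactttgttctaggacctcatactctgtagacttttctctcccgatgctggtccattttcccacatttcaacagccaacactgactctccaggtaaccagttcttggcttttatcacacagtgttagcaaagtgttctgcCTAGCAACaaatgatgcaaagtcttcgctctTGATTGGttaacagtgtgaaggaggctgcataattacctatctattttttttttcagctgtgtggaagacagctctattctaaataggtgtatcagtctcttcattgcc
The spacing of the 2 elements varied little. The X letters began at -84 from the start in H2-Aa, at -94 in H2-Eb1, at -79 in H2-Oa and at -90 in H2-Ob. Between the last X letter and the first Y letter lay 26 bases in H2-Aa and H2-Oa, 25 in H2-Eb1 and 23 in H2-Ob. Ctss lies on chromosome 3, outside the class II region of chromosome 17. Its window held neither set of letters but did hold the core letters of an interferon-stimulated response element, here in capitals, which stood in 3.44% of all windows on either strand. That element is known to bind interferon regulatory factors.
Ctss, chr3:95526536-95526835, plus strand: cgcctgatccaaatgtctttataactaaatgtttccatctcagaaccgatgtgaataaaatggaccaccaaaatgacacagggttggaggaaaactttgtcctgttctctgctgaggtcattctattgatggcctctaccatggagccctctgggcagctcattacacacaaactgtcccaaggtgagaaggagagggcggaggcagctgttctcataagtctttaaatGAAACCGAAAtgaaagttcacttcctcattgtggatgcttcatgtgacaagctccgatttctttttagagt
A match of letters is a description of the sequence and says nothing of what was bound in these spleens.

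Il1rn was measured first, as a check of the genotype labels. Its best separated probe set, 1451798_at, had scaled signals of 120 to 278 in the 6 wt spleens and 5.64 to 40.8 in the 6 ko spleens, with no overlap at either age. Of its 2 other probe sets, 1425663_at did not overlap either but was called lower in ko only over both ages (adjusted p = 0.0371), and 1423017_a_at overlapped at both ages and was not called. The 12 arrays had median signals of 113 to 148, and 52.1% to 59.2% of probe sets reached a signal of 100. The arrays fell into 2 sets by their highest deposited signal, under 45000 in 6 (low set) and over it in 6 (high set). The low set took in the whole ko group at 1 month and 1 array of each other group, whose remaining 2 arrays were high. The cause of the split is not given in the sources used here. Of 10 genes listed for the exocrine pancreas, which touches the spleen, 7 were on the array as single symbols and 4 were tested. Those 4 summed to 88178 in wt replicate 2 at 4 months and to 1226 to 2504 in the other 11 arrays. The deposited values are MAS5 signals, a linear intensity, and log2 differences below are of the scaled signal plus 32. A probe set is called when its Benjamini-Hochberg adjusted p in limma, over all 27041 probe sets tested, is under 0.05. Each log2 difference is given with its standard error (SE). No label says more of the replicates than the mouse, so p-values measure the spread between these mice.

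Most class II presentation genes had higher signals in the spleen at 4 months than at 1 month, in both genotypes. In wt, 12 of the 17 probe sets were called higher and 0 lower, against a background of 11.8% of all tested probe sets called higher and 21.4% called in either direction. In ko, 15 of 17 were called higher and 0 lower, against 13.6% higher and 22.9% in either direction. The called probe sets came from 7 of the 9 genes in wt and from all 9 in ko. The median log2 difference over the 9 genes, taking the brightest probe set of each, was 0.57 in wt and 0.83 in ko, beside 0.075 and 0.09 over all 12339 genes tested. The 2 age groups did not overlap for 12 of 17 probe sets in wt and 16 of 17 in ko, where 18.4% and 28.3% of all tested probe sets lay wholly higher at 4 months. Over all probe sets, wt had 3179 higher and 2616 lower calls, which became 2368 and 2521 with median centring and 2563 and 2738 with quantile normalization. In ko, 3685 higher and 2502 lower calls became 2013 and 3488 with median centring, which moved the median of all probe sets from 0.0996 to -0.051.

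**Figure D1:**
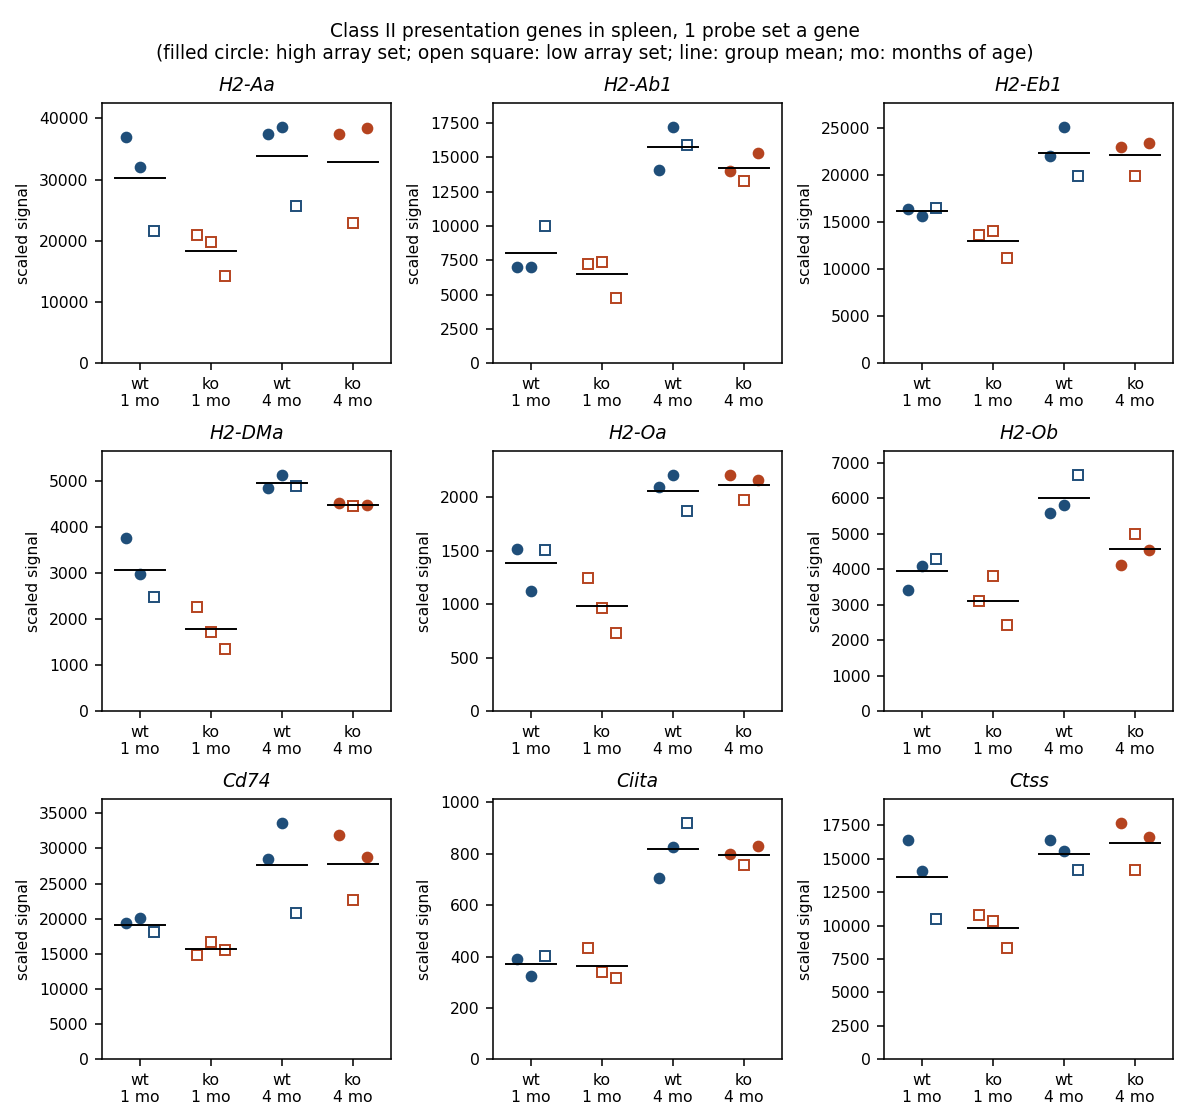
Scaled signal (vertical axis, linear, from 0) of the brightest probe set of each of the 9 genes in every spleen, by genotype and age; filled circles are high-set arrays, open squares low-set arrays and lines group means of 3 mice. The 4-month spleens lie above the 1-month spleens of their genotype for every gene in ko, and for all but H2-Aa and Ctss in wt.

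Ciita, the transactivator, rose with age in each of its 3 probe sets, and 2 of them had the largest age differences of all 17 in both genotypes. Probe set 1421210_at read 389, 325 and 403 in wt at 1 month and 705, 828 and 920 at 4 months. In ko it read 434, 341 and 315 at 1 month and 799, 755 and 831 at 4 months. No 4-month spleen of either genotype came down to the highest 1-month value. It rose 2.10-fold in wt (log2 1.07, SE 0.16, adjusted p = 0.00028) and 2.11-fold in ko (log2 1.08, SE 0.16, adjusted p = 0.000387). Probe set 1447075_at read 133, 170 and 159 in wt at 1 month and 778, 526 and 819 at 4 months. The ko values were 78.8, 105 and 112 at 1 month and 557, 278 and 445 at 4 months. The groups were again apart, and the increase was 3.92-fold in wt (log2 1.97, SE 0.24, adjusted p = 3.27e-05) and 3.41-fold in ko (log2 1.77, SE 0.24, adjusted p = 0.000179). Probe set 1421211_a_at had a log2 increase of 1.84 in wt (SE 0.30, adjusted p = 0.000467) and 1.44 in ko (SE 0.30, adjusted p = 0.00299). All 6 of these calls held when each of the 12 arrays was left out in turn. The 3 probe sets tracked each other over the 12 arrays with Pearson's r of 0.875 to 0.889, a description in which age takes part.

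H2-Ab1, the beta chain of the I-A molecule, about doubled. Probe set 1450648_s_at read 6979, 7027 and 9992 in wt at 1 month and 14080, 17241 and 15925 at 4 months. Ko spleens gave 7266, 7362 and 4779 at 1 month and 14024, 13303 and 15346 at 4 months. Every 4-month value lay above every 1-month value. The increase was 1.99-fold in wt (log2 0.99, SE 0.18, adjusted p = 0.00107) and 2.23-fold in ko (log2 1.16, SE 0.18, adjusted p = 0.000408). The other 2 probe sets of the gene gave log2 increases of 1.01 and 1.07 in wt and of 1.00 and 1.21 in ko, each called. These 6 calls also held without each array in turn.

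H2-Aa, the alpha chain that pairs with it, gave a less even picture. Its brightest probe set, 1435290_x_at, read 36926, 32069 and 21661 in wt at 1 month and 37391, 38667 and 25628 at 4 months, so the 2 wt groups overlapped. Signals in ko were 20974, 19812 and 14221 at 1 month and 37534, 22880 and 38457 at 4 months, with the groups apart. The wt difference was not called (log2 0.18, SE 0.24, adjusted p = 0.637). In ko it was called higher (log2 0.83, SE 0.24, adjusted p = 0.0196), but not without ko replicate 3 at 1 month or ko replicates 1 or 3 at 4 months (adjusted p up to 0.101). This probe set also differed between the array sets, by -0.66 for low minus high (SE 0.10, adjusted p = 0.00264), and the lowest value of each group with arrays of both sets was its low-set array. The age difference in ko was 0.39 with the array set as a block (adjusted p = 0.0603), and the part of the array set in it was not tested. A second probe set, 1452431_s_at, followed the first closely (r = 0.928 over 12 arrays). It had a log2 difference of 0.36 in wt (SE 0.18, adjusted p = 0.165) and was called higher in ko (log2 0.94, SE 0.18, adjusted p = 0.00158). The wt difference was called without wt replicate 3 at 4 months (adjusted p = 0.0392), and also in the array set block (adjusted p = 0.045). Probe set 1438858_x_at stood at 0.92 in wt (SE 0.33, adjusted p = 0.0583) and was called in ko at 1.16 (SE 0.33, adjusted p = 0.0188). The wt difference was called without wt replicate 3, ko replicate 1 or ko replicate 3 at 1 month, at an adjusted p down to 0.0106, and in the array set block (0.0438). The ko call was lost without ko replicate 3 at either age (adjusted p up to 0.104). The remaining H2-Aa probe set, 1443783_x_at, was dim, at 53.9 to 223, was called in neither genotype and tracked the brightest one with r = 0.117. Probe sets whose names end in x_at or s_at can bind transcripts of related genes, and the class II chains are such relatives.

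H2-Eb1, the beta chain of the I-E molecule, rose in both genotypes. It read 16402, 15669 and 16437 in wt at 1 month and 22018, 25119 and 19853 at 4 months. In ko it read 13639, 14038 and 11122 at 1 month and 22917, 19889 and 23399 at 4 months. The groups were apart in both genotypes, at 1.37-fold in wt (log2 0.46, SE 0.14, adjusted p = 0.0255) and 1.71-fold in ko (log2 0.77, SE 0.14, adjusted p = 0.000995). The wt call was lost without wt replicate 1 or 2 at either age (adjusted p up to 0.0908). H2-Eb1 followed the mean of the other 8 genes more closely over the 12 arrays than any other member did (r = 0.986).

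H2-DMa, the alpha chain of the peptide exchanger H2-DM, had the largest ko increase among the brightest probe sets of the 9 genes. Probe set 1422527_at read 3762, 2974 and 2480 in wt at 1 month and 4842, 5138 and 4901 at 4 months. The ko values were 2259, 1716 and 1361 at 1 month and 4521, 4455 and 4487 at 4 months, the 3 older ko spleens lying close together. The increase was 1.63-fold in wt (log2 0.71, SE 0.17, adjusted p = 0.00913) and 2.55-fold in ko (log2 1.35, SE 0.17, adjusted p = 0.000127), and both calls held without each array in turn. Its second probe set, 1459872_x_at, was dim at 9.05 to 155 and tracked the first poorly (r = 0.327). It was called higher in wt (log2 1.25, SE 0.37, adjusted p = 0.0245), a call lost without wt replicate 2 at 1 month (0.0883), and had a log2 difference of 0.14 in ko (SE 0.37, adjusted p = 0.825).

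H2-Oa and H2-Ob, the 2 chains of the modulator H2-O, rose with age in both genotypes. H2-Oa read 1520, 1123 and 1509 in wt at 1 month and 2098, 2206 and 1873 at 4 months. Ko spleens gave 1249, 963 and 733 at 1 month and 2213, 1973 and 2160 at 4 months. Both pairs of groups were apart, with log2 increases of 0.57 in wt (SE 0.18, adjusted p = 0.0306) and 1.11 in ko (SE 0.18, adjusted p = 0.000498). H2-Ob read 3421, 4105 and 4301 in wt at 1 month and 5581, 5819 and 6667 at 4 months. Signals in ko were 3107, 3803 and 2432 at 1 month and 4135, 5007 and 4557 at 4 months. The H2-Ob groups were apart as well, with log2 increases of 0.61 in wt (SE 0.16, adjusted p = 0.0135) and 0.57 in ko (SE 0.16, adjusted p = 0.0184). The wt call of H2-Oa was lost without wt replicate 2 at 1 month or wt replicates 1 or 2 at 4 months (adjusted p up to 0.118). The wt call of H2-Ob was lost without wt replicate 1 at 1 month or wt replicate 3 at 4 months (up to 0.0683), and its ko call without ko replicate 3 at 1 month or ko replicates 2 or 3 at 4 months (up to 0.103).

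Cd74, the invariant chain, read 19374, 20090 and 18071 in wt at 1 month and 28535, 33667 and 20764 at 4 months. In ko it read 14811, 16637 and 15530 at 1 month and 31943, 22651 and 28741 at 4 months. The ages were apart in both genotypes. The increase was 1.41-fold in wt (log2 0.50, SE 0.17, adjusted p = 0.0459) and 1.76-fold in ko (log2 0.81, SE 0.17, adjusted p = 0.00302). The wt call was lost in 9 of the 12 fits that left out 1 array, among them those without any 1 of the 6 arrays at 1 month, wt replicates 1 or 2 at 4 months or ko replicate 3 at 4 months (adjusted p up to 0.176). Cd74 also differed between the array sets, by -0.37 for low minus high (SE 0.09, adjusted p = 0.044). Beside H2-Aa 1435290_x_at it was the only member probe set called there, where 1.84% of all tested probe sets were. With the array set as a block its age differences were 0.50 in wt (adjusted p = 0.00278) and 0.56 in ko (adjusted p = 0.00478).

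Ctss, the cathepsin that trims the invariant chain, was called in ko and not in wt. It read 16366, 14092 and 10466 in wt at 1 month and 16411, 15594 and 14125 at 4 months, with overlapping groups. The ko values were 10796, 10366 and 8322 at 1 month and 17685, 14181 and 16651 at 4 months, with the groups apart. The wt difference was a log2 of 0.19 (SE 0.17, adjusted p = 0.437) and was called with quantile normalization (0.39, adjusted p = 0.0334). The ko increase was 0.72 (SE 0.17, adjusted p = 0.00539), a call that held without each array in turn and in the array set block (0.50, adjusted p = 0.016).

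**Figure D2:**
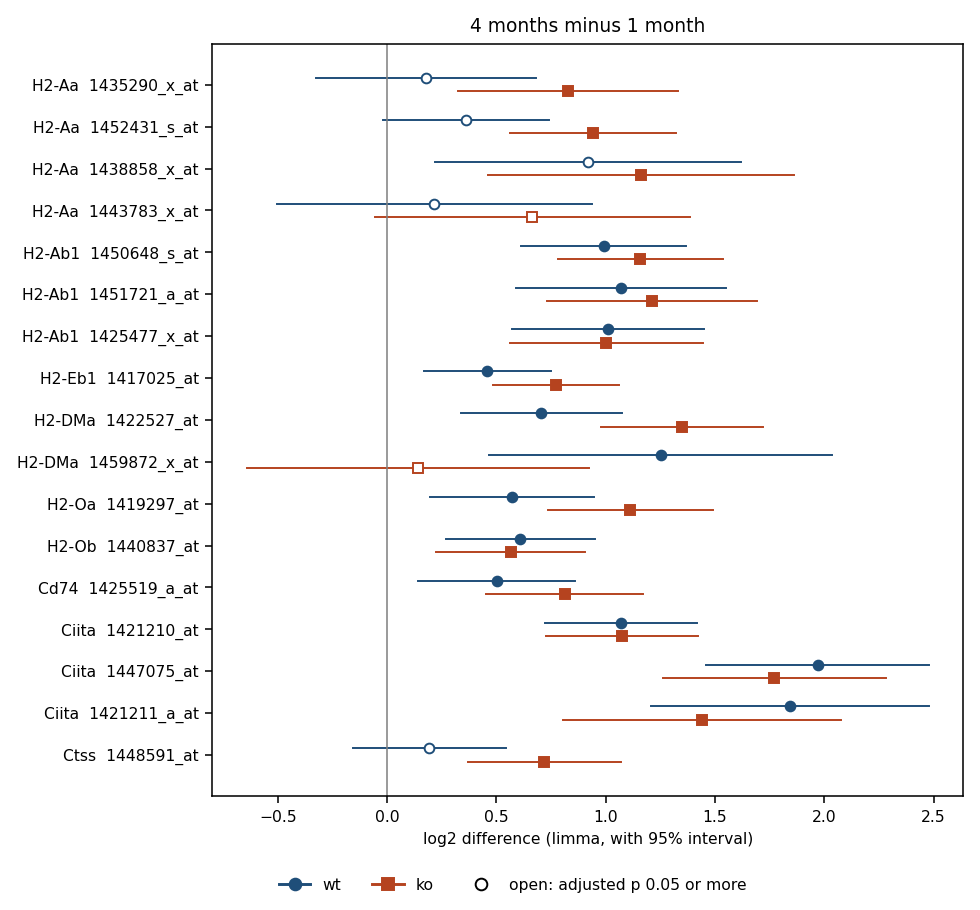
Log2 difference of 4 months minus 1 month (horizontal axis) with its 95% limma interval for each of the 17 probe sets, in wt (circles) and ko (squares); open symbols have an adjusted p of 0.05 or more. Every difference lies above 0, with the 3 Ciita and 3 H2-Ab1 probe sets called in both genotypes.

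Because no high-set array exists for ko at 1 month, the age comparison in ko can be made within 1 set only in the low set, as 1 array at 4 months against 3 at 1 month, and in wt as 1 against 1. The high set allows 2 against 2 in wt. In wt, the brightest probe set of each gene was higher at 4 months in both sets. The within-set differences ran from 0.07 for Ctss to 1.15 for H2-Ab1 in the high set, and from 0.20 for Cd74 to 1.13 for Ciita in the low set. In the high set 13 of the 17 probe sets were called higher, beside 7.32% of all tested probe sets. In the low set 1 was called higher, Ciita 1447075_at, beside 1.55%. Within the low set of ko, 11 of 17 were called higher, beside 5.17%. These low-set fits rest on 2 residual degrees of freedom, all from ko at 1 month, and assume that the lone arrays vary like those.

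**Figure D3:**
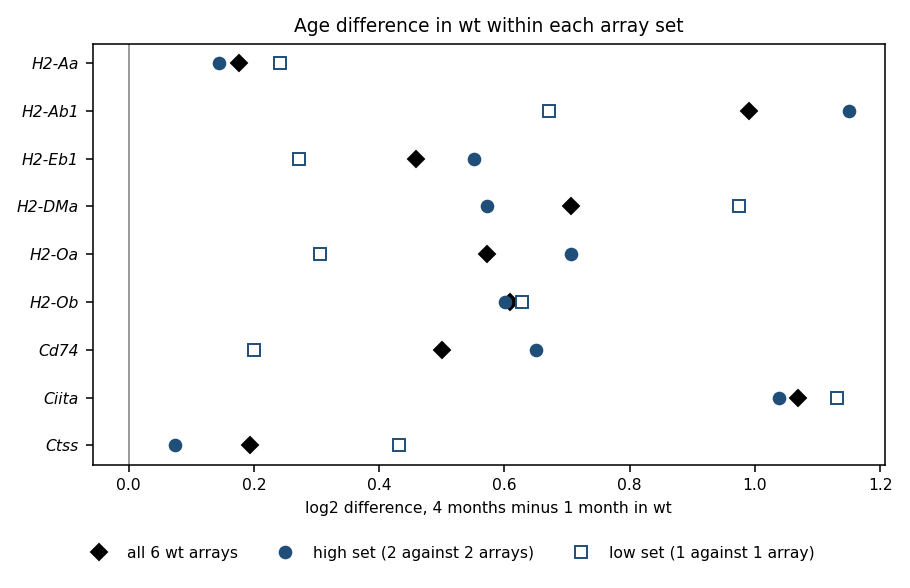
Log2 difference of 4 months minus 1 month in wt (horizontal axis) for the brightest probe set of each gene, over all 6 wt arrays (diamonds), within the high set (circles) and within the low set (open squares). Every point lies above 0; H2-Ab1, Cd74, H2-Oa and H2-Eb1 stand lower in the low set than in the high set, and H2-DMa and Ctss higher.

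At 1 month, class II presentation genes were not called different between ko and wt spleens. With limma 0 of the 17 probe sets were called, beside 0.444% of all tested probe sets, and 8 had an unadjusted p under 0.05. The values leaned one way: 14 of 17 differences were below 0 and the median over the 9 genes was -0.35, beside -0.017 over all genes. In 6 of 17 probe sets every ko spleen lay below every wt spleen, where 11.9% of all tested probe sets did so. Those 6 were H2-Aa 1435290_x_at and 1452431_s_at, H2-Eb1, H2-DMa 1422527_at, Cd74 and Ciita 1447075_at. H2-DMa came nearest to the threshold, at 3762, 2974 and 2480 in wt against 2259, 1716 and 1361 in ko (log2 -0.79, SE 0.17, adjusted p = 0.0603). The H2-Aa probe set 1452431_s_at followed, at 28594, 24822 and 22316 in wt against 18239, 17569 and 12697 in ko (log2 -0.65, SE 0.18, adjusted p = 0.114). H2-Oa, which holds H2-DM back, had a difference of -0.50 (SE 0.18, adjusted p = 0.198) and Ctss of -0.46 (SE 0.17, adjusted p = 0.205). Ciita 1421210_at and H2-Ab1 1425477_x_at stood near 0, at -0.04 (95% interval -0.39 to 0.31) and 0.03 (-0.41 to 0.47).

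The 1-month result rested on which wt spleens were used. Wt replicate 3, the wt array of the low set, stood lowest of the wt spleens for H2-Aa 1435290_x_at, 1452431_s_at, H2-DMa 1422527_at, Cd74 and Ctss. It stood highest of them for 10 of the 17 probe sets, among them all 3 of H2-Ab1, H2-Eb1, H2-Ob and Ciita 1421210_at. Without it, 4 probe sets were called lower in ko, which were those H2-Aa probe sets, H2-DMa and Ctss. Of all 26922 probe sets tested in that fit, 751 were called lower, and 5.92% were called in either direction. Without ko replicate 1 at that age H2-DMa was called. With the array set as a block the differences moved both ways, and none was called. H2-Aa 1435290_x_at moved toward 0, to -0.27 (adjusted p = 0.564), as did Cd74 (-0.04) and Ctss (-0.24). H2-Ab1 1450648_s_at (-0.40) and H2-Ob (-0.49) moved away from 0, and H2-DMa 1422527_at stood at -0.68 (adjusted p = 0.271). With the arrays centred on their medians, the median over the 9 genes was -0.20, while that of all probe sets moved from -0.035 to 0.12. Among the 1-month arrays, the array set and the genotype can be told apart only through that 1 wt array. The block also draws on the 4-month arrays of both sets and assumes the same set difference in every group.

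At 4 months ko and wt were not called different either. With limma 0 of the 17 probe sets were called, beside 2.3% of all tested probe sets, and 2 had an unadjusted p under 0.05. The median over the 9 genes was -0.03, beside 0.018 over all genes. H2-Ob was the lowest of the brightest probe sets, at 5581, 5819 and 6667 in wt against 4135, 5007 and 4557 in ko (log2 -0.40, SE 0.16, adjusted p = 0.233). Its groups were apart, as were those of H2-DMa 1422527_at (log2 -0.14, SE 0.17, adjusted p = 0.745), so 2 of 17 lay wholly lower in ko, where 11.4% of all tested probe sets did. The second Ciita probe set, 1447075_at, stood at -0.71 (SE 0.24, adjusted p = 0.148) with overlapping groups, while Ciita 1421210_at stood at -0.03 (95% interval -0.38 to 0.32). The intervals of the 3 H2-Ab1 probe sets together spanned -0.52 to 0.56, which is the precision that 3 arrays a group gave.

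Averaged over both ages, 2 of 17 probe sets were called lower in ko and 0 higher, beside 2.56% called lower and 5.39% called in either direction. They were H2-DMa 1422527_at (log2 -0.46, SE 0.12, adjusted p = 0.0398) and Ciita 1447075_at (log2 -0.61, SE 0.17, adjusted p = 0.0466). H2-Ob followed at -0.38 (SE 0.11, adjusted p = 0.0656). Neither call was firm. That of H2-DMa was lost in 10 of 12 fits that left out 1 array, kept only without wt replicate 3 or ko replicate 1 at 1 month, and that of Ciita in 9 of 12, kept only without wt replicate 3 at 1 month, wt replicate 2 at 4 months or ko replicate 1 at 4 months (adjusted p up to 0.114 and 0.112). In the array set block they stood at -0.41 (adjusted p = 0.0797) and -0.57 (0.0943), and H2-Ob was called at -0.45 (0.0349).

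The interaction of age and genotype, that is, the age difference in ko minus that in wt, was called for 0 of 17 probe sets with limma, beside 0.0481% of all. There were 5 with an unadjusted p under 0.05. Of these, H2-DMa 1422527_at (0.64, SE 0.25), H2-Aa 1452431_s_at (0.58, SE 0.25), H2-Oa (0.54, SE 0.25) and Ctss (0.53, SE 0.23) had the larger age increase in ko, and the dim H2-DMa 1459872_x_at had the smaller (-1.11, SE 0.52). So for H2-Aa and Ctss, called in ko and not in wt, the adjusted p of the difference itself was 0.612 for H2-Aa 1435290_x_at and 0.548 for Ctss. The comparisons at 1 month, of the ages and of their difference share arrays and are not separate evidence.

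**Figure D4:**
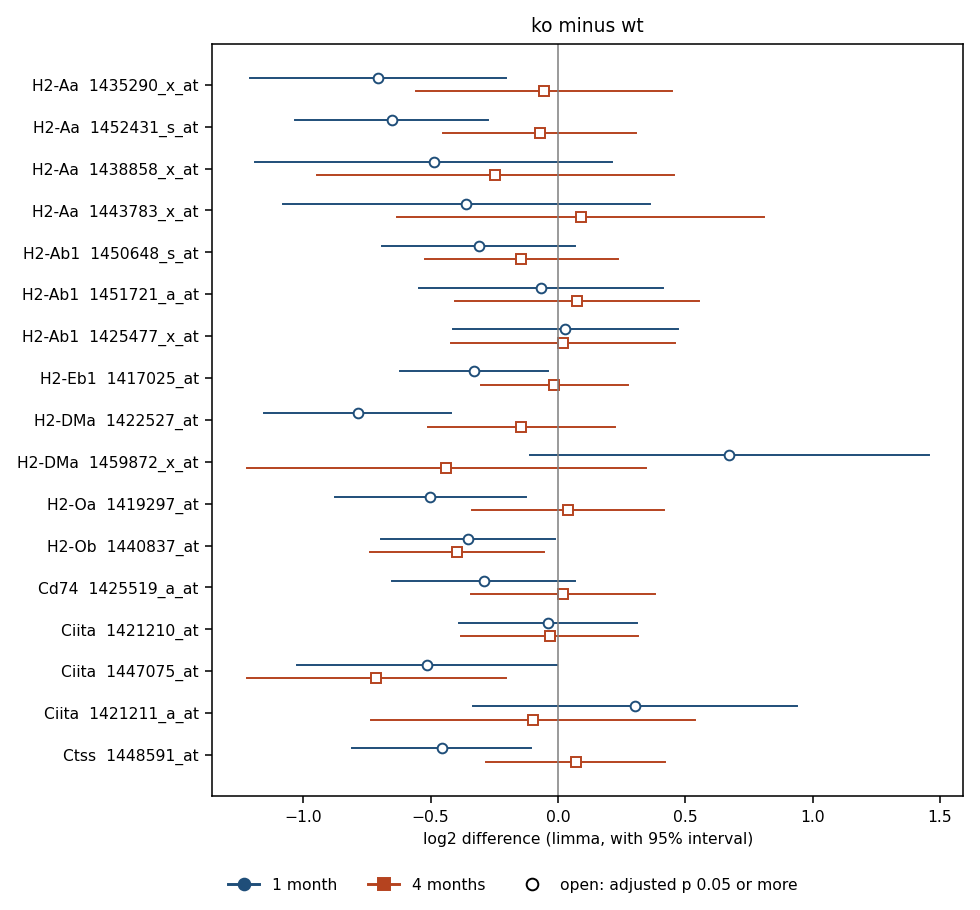
Log2 difference of ko minus wt (horizontal axis) with its 95% limma interval for each of the 17 probe sets, at 1 month (circles) and 4 months (squares); open symbols, which are all of them, have an adjusted p of 0.05 or more. At 1 month 14 of the 17 points lie below 0, and at 4 months 11 of 17.

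Of 4 other genes listed for the class II region, 3 had a probe set with a single symbol. H2-DMb2, a beta chain of H2-DM, rose with age in wt (log2 0.62, SE 0.15, adjusted p = 0.00989) and ko (log2 1.09, SE 0.15, adjusted p = 0.000229). H2-Ea, the alpha chain that pairs with H2-Eb1, was called in ko (0.77, SE 0.19, adjusted p = 0.00907; 0.0573 without ko replicate 3 at 1 month) and stood at 0.39 in wt (SE 0.19, adjusted p = 0.171). H2-Eb2, whose window holds the X and Y letters too, was dim at 83.5 to 217 and was called in neither genotype. Its log2 difference was 0.23 in wt (SE 0.27, adjusted p = 0.578) and 0.61 in ko (SE 0.27, adjusted p = 0.111), with the ko groups apart. Of these 3 genes 1 was called higher in wt and 2 in ko, while all 3 differences were above 0 in each genotype. Of all 27041 tested probe sets, 11.8% were called higher with age in wt and 13.6% in ko, the shares to set beside the lists below as well. The lists count only the brightest probe set of each gene, so the units differ, and dim probe sets weigh on these shares. With the filter raised to a signal of 200, 3243 of 20834 probe sets were called higher in wt and 3725 in ko.

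Of 19 tested genes that act on class II transcription, 8 were called higher and 1 lower with age in wt, and 8 higher and 2 lower in ko. Differences were above 0 for 15 of them in wt and 13 in ko. The median log2 difference was 0.32 in wt and 0.25 in ko. Those with the smallest p in wt were the interferon-gamma receptor chain Ifngr2 (1.02, SE 0.20), the B cell factor Spib (0.73, SE 0.15), and the interferon regulatory factors Irf4 (0.81, SE 0.17), Irf8 (0.70, SE 0.15) and Irf1 (0.72, SE 0.16). With Ifngr1 (0.73, SE 0.16) their adjusted p were 0.00244 to 0.00453, and all 6 held without each array in turn. Prdm1, a repressor of Ciita in plasma cells, rose by 0.76 in wt (SE 0.17, adjusted p = 0.00454) and by 1.19 in ko (SE 0.17, adjusted p = 0.000214). Rfx5, a DNA-binding subunit of the X-box complex, stood at 0.31 in wt (SE 0.20, adjusted p = 0.285) and rose by 0.73 in ko (SE 0.20, adjusted p = 0.0147), a call lost without ko replicate 3 at 1 month or ko replicate 1 at 4 months (up to 0.066). Nfyb, a subunit of the Y-box factor, fell by 0.56 on the log2 scale in wt (SE 0.15, adjusted p = 0.0157), a value named after it was seen, and lost its call without wt replicate 1 at 1 month (0.0673). The X-box and Y-box subunits Rfxap, Rfxank, Nfya and Nfyc were called in neither genotype, with differences from -0.36 to 0.34. With median centring the ko split of this list became 4 higher and 4 lower. Leaving out an array moved the number of ko calls to between 5 and 8 higher and 0 and 3 lower. Ifng itself reached a signal of 100 on too few arrays to be tested, with a highest signal of 100.4.

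Of 13 endosomal processing genes, 6 were called higher with age and 1 lower in wt, and 5 higher and 0 lower in ko. Differences were above 0 for 10 of 13 in each genotype, with medians of 0.36 and 0.37. Cst3, which encodes cystatin C, an inhibitor of cathepsins, rose by 0.57 in wt (SE 0.12, adjusted p = 0.00395) and 0.92 in ko (SE 0.12, adjusted p = 0.000162). Cathepsin H (Ctsh) rose by 0.71 and 0.76, and the asparagine-specific protease legumain (Lgmn) by 0.90 and 0.95. These 6 calls held without each array in turn. Cathepsin E (Ctse) fell by 0.89 in wt (SE 0.23, adjusted p = 0.0122), which was lost without wt replicate 1 at either age or wt replicate 3 at 4 months (adjusted p up to 0.0607). The wt count of higher calls was 3 without wt replicate 1 at 1 month or wt replicate 3 at 4 months. The ko count was 3 without any 1 of the ko arrays other than replicate 2 at 4 months.

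The 2 ubiquitin ligases that remove class II from the surface moved in opposite directions with age. Marchf1 rose by 0.99 in wt (SE 0.15, adjusted p = 0.00019) and 1.12 in ko (SE 0.15, adjusted p = 0.000131). Marchf8 fell by 1.52 in wt (SE 0.17, adjusted p = 1.46e-05) and by 1.11 in ko (SE 0.17, adjusted p = 0.000367). All 4 calls held without each array in turn. In the list of turnover and costimulation that holds both, 6 of 10 were called higher and 1 lower in each genotype. The costimulatory ligand Icosl rose by 1.17 and 1.93, Cd40 by 0.67 and 0.77, and Cd83, which shields class II from Marchf1, by 1.02 and 0.77 in wt and ko. At 4 months Cd83 was lower in ko than in wt (-0.92, SE 0.19, adjusted p = 0.0159) and Marchf8 higher (0.80, SE 0.17, adjusted p = 0.0197). The first call was lost without wt replicate 3 or any ko array of that age and the second without wt replicate 1 or ko replicate 2 (adjusted p up to 0.08 and 0.0918). Over both ages these 2 differences were -0.80 and 0.60, and both calls held without each array in turn.

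Class I presentation is the arm that serves CD8 T cells. In wt 7 of 17 tested genes were called higher with age and 0 lower, and in ko 9 higher and 1 lower. Differences were above 0 for 16 of 17 genes in wt and 15 in ko, with medians of 0.44 and 0.55. H2-M3, which presents formylated peptides, rose by 1.00 in wt (SE 0.14, adjusted p = 0.000161) and by 1.48 in ko (SE 0.14, adjusted p = 1.61e-05). The peptide transporter chain Tap1 rose by 0.53 and 0.96 and the immunoproteasome subunit Psmb9 by 0.52 and 0.76. Without wt replicate 1 at 1 month neither was called in wt (adjusted p up to 0.12 over all fits). The wt count fell to 2 without wt replicate 1 at 1 month, and the ko count to 5 and 6 without ko replicates 1 and 3 at 4 months. The medians for ko minus wt were -0.11 at 1 month and 0.063 at 4 months.

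Many markers of the cells that carry class II had higher signals at 4 months as well. In wt, 11 of 13 B cell, 6 of 11 dendritic cell and 8 of 11 macrophage and monocyte markers were called higher at 4 months. In ko the counts were 11 of 13, 10 of 11 and 10 of 11. The B cell list had medians of 0.73 and 0.88, and its summed signal was 42766 to 47775 in wt at 1 month, 68328 to 80599 in wt at 4 months, 30980 to 36192 in ko at 1 month and 56531 to 69543 in ko at 4 months. The complement receptor Cr2 led it, rising by 1.13 in wt (SE 0.15, adjusted p = 6.09e-05) and 1.51 in ko (SE 0.15, adjusted p = 1.61e-05). Itgax, the CD11c chain of dendritic cells, rose by 0.89 and 1.20, and Spic, a factor of red pulp macrophages, by 0.78 and 1.25. Siglec1, a marker of marginal zone macrophages, stayed under the signal needed for testing. The wt count of B cell markers was 6 or 7 without wt replicate 1 at 1 month or wt replicates 2 or 3 at 4 months, and that of macrophages 5 without wt replicate 1 at 1 month. Within the low set, where 1 wt array stood against 1, the B cell median was 0.52 in wt, with no call. With median centring 8 of the 13 B cell markers were called in each genotype. Of the markers of T cells, which in the mouse carry little class II, 4 of 9 were called higher in wt and 8 of 9 in ko. Leaving out 1 array lowered these to 1 without wt replicate 1 at 1 month and to 5 without ko replicate 3 at either age.

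Neutrophil markers went the other way and separated the genotypes at both ages. All 10 fell with age, with medians of -2.53 in wt and -1.77 in ko. At 1 month all 10 were called higher in ko than in wt (median 1.98), beside 0.203% of all tested probe sets. The same 10 were called higher at 4 months (median 2.92), beside 1.78%. Their summed signal was 44356 to 54655 in wt and 128106 to 158432 in ko at 1 month, and 9711 to 14649 and 52173 to 69490 at 4 months. Erythroid markers were called lower at 4 months in 9 of 9 genes in wt and 5 of 9 in ko. Of all tested probe sets, 9.67% and 9.25% were called lower with age. At 4 months 7 of the 9 erythroid markers were called higher in ko than in wt, with a median of 1.17. That count was 0 at 1 month, with a median of 0.10. Leaving out 1 array moved the 4-month count to between 5 and 9. At 1 month the medians of B cell, dendritic cell, macrophage and T cell markers were -0.47, -0.48, -0.29 and -0.39 for ko minus wt, beside the -0.35 of the class II presentation genes. At 4 months they were -0.35, -0.13, 0.26 and -0.16, beside -0.03. Over both ages 2.56% of all tested probe sets were called lower in ko. Of the B cell markers 6 of 13 were, with a median of -0.43 beside -0.23. Of these 44 markers at 1 month Cr2 (-0.71, SE 0.15, adjusted p = 0.045) and the scavenger receptor Marco (-1.50, SE 0.22, adjusted p = 0.00398) were called lower, the first lost without 9 of the 12 arrays. The part of cell makeup in the class II values was not tested, since no sorted cells or cell counts were used here.

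**Figure D5:**
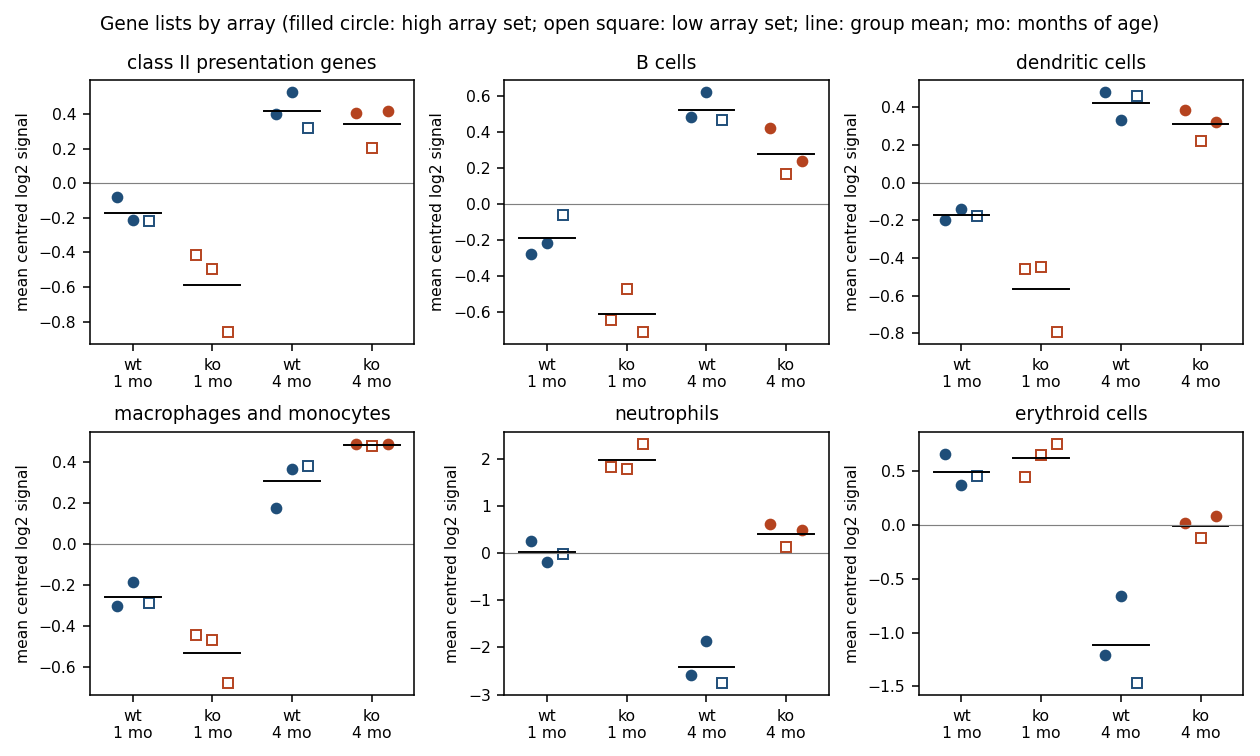
Mean log2 signal of each list in every spleen, each gene centred on its mean over the 12 arrays (vertical axis, 0 is the mean of all arrays), for the class II presentation genes and 5 marker lists; symbols as in the plot of scaled signals, with lines for group means. The class II, B cell, dendritic cell and macrophage lists are higher at 4 months in both genotypes, while neutrophil markers are higher in ko at each age and lower at 4 months.

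The genes whose pattern was most like the mean of the 9 class II presentation genes over the 12 arrays were picked by Pearson's r, as a description in which age and shared arrays take part. The first was Cst3 (r = 0.982), followed by Mirt1 (0.976), H2-M3 (0.973), Phxr4 (0.972), Fcmr (0.972), Anxa4 (0.972), Cr2 (0.972), Ninj1 (0.971), Serpina1b (0.97) and Timp2 (0.969). With each group's mean taken out, the same 10 had r of 0.57 to 0.838 over the arrays. Within the set, r of a gene with the mean of the other 8 ran from 0.771 for H2-Aa and 0.803 for H2-Ob to 0.986 for H2-Eb1.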

How the data were processed

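Total RNA from 12 mouse spleens was measured on 1 3' expression array each. The authors deposited MAS5 signal intensities (linear, already scaled to a common level), with MAS5 named in the submitters' processing notes. Further steps are not given in the sources used here. Here signals were rescaled so that the 2% trimmed mean per array was 500, and log2 was taken after adding 32. After 64 control probe sets were set aside, 27041 of 45037 reached a signal of 100 on 3 arrays. limma 3.58.1 in R 4.3.3 fitted 4 group means with an intensity trend (8 residual and 8.27 prior degrees of freedom), with Benjamini-Hochberg adjustment over all probe sets and 6 contrasts. The fit was tested on simulated data. Of the non-control probe sets 34945 had 1 symbol, 932 several and 9160 none. For a gene, the probe set with the highest mean signal stands. No array repeated another (highest r 0.995). The members and lists were chosen with earlier results of these data known. The text names every member probe set, in each other list called genes with the smallest p, and the 10 genes most like the members. Alternatives were quantile normalization, median centring, other offsets and filters, no intensity trend, blocks, array sets and leaving out each array. The number of arrays limits the precision.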

Additional observations from a re-analysis of the deposited data

How the results depend on the processing

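Over 23 alternatives, no called direction reversed among the 102 results for single probe sets and comparisons; of 2248 such values 84 lost a call and 22 gained one. The sign turned in 106 values of 31 results, 3 of them age differences, none of them called before or after. For wt age, the count of 12 called ran from 8 to 12 when 1 array was left out, and was 1 within the low set. For ko age, the count of 15 ran from 12 to 15, and the median of 0.83 ran from 0.74 to 1.07, was 0.68 with median centring and was 1.00 over all member probe sets. For ko against wt at 1 month, the count of 0 ran from 0 to 4 and was 1 with a replicate block; the median of -0.35 ran from -0.50 to -0.29 and was -0.20 with median centring. Over both ages, the count of 2 ran from 0 to 2; it was 0 with median centring, with no filter, with no intensity trend and within the low set, and 1 with a replicate block and 1 in the array set block. The interaction median of 0.31 ran from 0.23 to 0.47 when 1 array was left out, was 0.18 with median centring and was 0.22 in the array set block. Same-numbered arrays did not pair: 4 of 18 correlations of their deviations were over 0.1 (-0.20 to 0.21), and the replicate block left 11 calls for wt age. Over all probe sets, the 120 calls at 1 month became 77 with no filter, 68 with no intensity trend, 45 in the array set block and 1593 without wt replicate 3 of that age. The 621 at 4 months became 248 with no intensity trend, the 1457 over both ages 795 with no filter and 555 with no trend, and the 13 of the interaction 1 with no trend. Where no cause is visible from the alternative itself, the cause was not tested.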
